A study of Rattus norvegicus with 6 samples.

Results

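The minichromosome maintenance (MCM) genes Mcm2, Mcm3, Mcm4, Mcm5, Mcm6, Mcm7, Mcm8 and Mcm10 and the clamp gene Pcna were measured in the renal cortex of rats given dipropylene glycol (DPG) or water. These 9 genes were chosen as a set by signal differences between the DPG and the water arrays, which were known from an earlier look at the same data. Those differences are therefore given as a description, with no test, and nothing is supported with them. A probe belonged to a gene when the RefSeq transcript that the scanner files list for it was a transcript of that gene. This rule found 20 of the 61537 non-control probes of each array and 8 of the 9 genes. It matched no probe to Mcm5, whose expression is not analysed here.

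Total RNA came from the renal cortex, the outer kidney layer that houses the glomeruli and much of the proximal tubule, of 6 male Sprague-Dawley rats (Crl:CD(SD)) bought at 5 weeks of age. The control group of 3 rats received water, and the DPG group of 3 rats received the solvent dipropylene glycol at 1000 mg/kg/day, each for 4 weeks. All 6 rats had a basal diet and tap water, and the sources used here do not give the route of dosing. Each animal's Cy3-labelled RNA was run on its own one-colour Agilent array, so that the 3 arrays of a group are 3 animals.

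Between 39556 and 43184 probes per array were well above background, and 0 were saturated. Control 3 stood apart with the fewest such probes and 34 spots with outlier flags, where the other arrays had 0 to 4, so values without it are given below. The control arrays shared slide 1 and scan 1 and the DPG arrays slide 2 and scan 2, so slide or scan and treatment cannot be told apart. The labelled tissue was checked against 10 proximal tubule markers, all of which lay above the 75th percentile of every array, the lowest at 1.36 log2 units. The thick limb marker Umod and the collecting duct marker Aqp2 lay above it too, and the inner medulla marker Slc14a2 below it. This check shows proximal tubule in the samples and cannot by itself separate cortex from other kidney layers. A feature was a gene, or an identifier without a gene symbol, at its brightest kept probe. Over all 29647 features, limma with Benjamini-Hochberg adjustment called 0 (0%) at an adjusted p of 0.05. The smallest adjusted p in limma was 0.125, and 3669 features passed an unadjusted p of 0.05, 6.68% of all features on the higher side in DPG and 5.70% on the lower.

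MCM2 to MCM7 form the ring-shaped hexamer that is loaded onto replication origins in G1 phase by the origin recognition complex, CDC6 and CDT1, a step known as licensing. In S phase the ring joins CDC45 and the GINS complex to become the helicase that unwinds DNA, and MCM10 helps to activate it. MCM8 is a relative of the hexamer subunits that works with MCM9 in recombination repair, and PCNA is the sliding clamp that holds DNA polymerases and many repair and chromatin factors on DNA. Most of these genes are targets of the E2F transcription factors, which the retinoblastoma protein family restrains in resting cells, and most tubule cells of the grown kidney are resting.

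E2F factors bind short sites rich in G and C behind a run of T, and the start-site regions of the genes are shown first for such letters. RefSeq windows from 250 bases before to 50 bases after a start site (assembly GRCr8) were at hand for 8 of the 9 genes, Mcm5 included and Mcm4 not. The letters searched, on both strands, were TTTCGCGC, TTTGGCGC, TTTCCCGC and TTTGCCGC, together with CCAAT, the box bound by the factor NF-Y. At least 1 of the E2F-type letters was found in 716 of 33469 windows of all genes (2.14%) and in 6 of the 8 windows here. Gene lists described further on held them too, in 5 of 10 windows of licensing and loading and 6 of 16 of helicase activation and firing. So did 11 of 28 windows of clamp loaders, polymerases and PCNA partners, 3 of 9 of E2F and RB regulators and 1 of 5 of nucleotide supply. For G2 and mitosis it was 1 of 17, and for inhibitors and quiescence 0 of 9. The following stretches hold such letters and are shown because 6 of the 8 windows do. Each is written 5′ to 3′ on the strand of the gene, with the E2F-type letters in capitals (GCGCGAAA, GCGCCAAA and GCGGGAAA are such letters read on the other strand).
Mcm2: ggtcacgtgacccggtTTTCGCGCGAAAac
Mcm3: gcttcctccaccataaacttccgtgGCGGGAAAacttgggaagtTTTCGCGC
Mcm5 (distal): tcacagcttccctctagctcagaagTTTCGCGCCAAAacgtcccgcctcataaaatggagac
Mcm5 (proximal): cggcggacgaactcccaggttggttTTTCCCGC
Mcm6: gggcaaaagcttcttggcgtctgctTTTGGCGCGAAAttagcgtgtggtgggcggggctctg
Mcm7 (distal): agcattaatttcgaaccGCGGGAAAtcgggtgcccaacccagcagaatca
Mcm7 (proximal): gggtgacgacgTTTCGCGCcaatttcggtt
Mcm8: gaagcgcgtcataggcGCGCCAAAaaagaa
The Mcm2 stretch lies at chr4:122918095-122918124 on the minus strand, directly before the start site. Mcm3 (chr9:30733726-30733777, minus strand) has 1 match across the start site and 1 that ends 21 bases into the transcript. For Mcm5 the stretches are chr19:13488575-13488636 and chr19:13488780-13488812 on the plus strand, and the Mcm6 stretch is chr13:42404455-42404516 on the minus strand. Those of Mcm7 are chr12:22163379-22163428 and chr12:22163212-22163241 on the minus strand, and that of Mcm8 is chr3:140539617-140539646 on the plus strand. For Mcm2, Mcm7, Mcm8 and Mcm10 the annotated gene begins 111, 142, 57 and 3338 bases upstream of the start site of the window, so the letters before that site can lie inside a longer transcript.

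In Mcm2, Mcm5 and Mcm6 the matches of both strands overlap in the 12-letter form TTTNGCGCNAAA, which was picked out after the sequences had been seen. Of 33469 windows, 6 hold this form (0.0179%), and they belong to 5 genes, Mcm2, Mcm5, Mcm6, Gins1 and Topbp1. Gins1 encodes a subunit of the GINS complex and Topbp1 a factor that helps origins to fire. CCAAT was present in 7 of the 8 windows, all but that of Mcm2, against 37.5% of all windows. In the Mcm7 window 1 CCAAT overlaps the last letter of the E2F-type letters nearer to the start. The windows of Mcm10 and Pcna hold CCAAT but none of the E2F-type letters, which says only that these letters are not within those windows. A match of letters is a description and not evidence of binding, which these arrays did not measure.

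**Figure D1:**
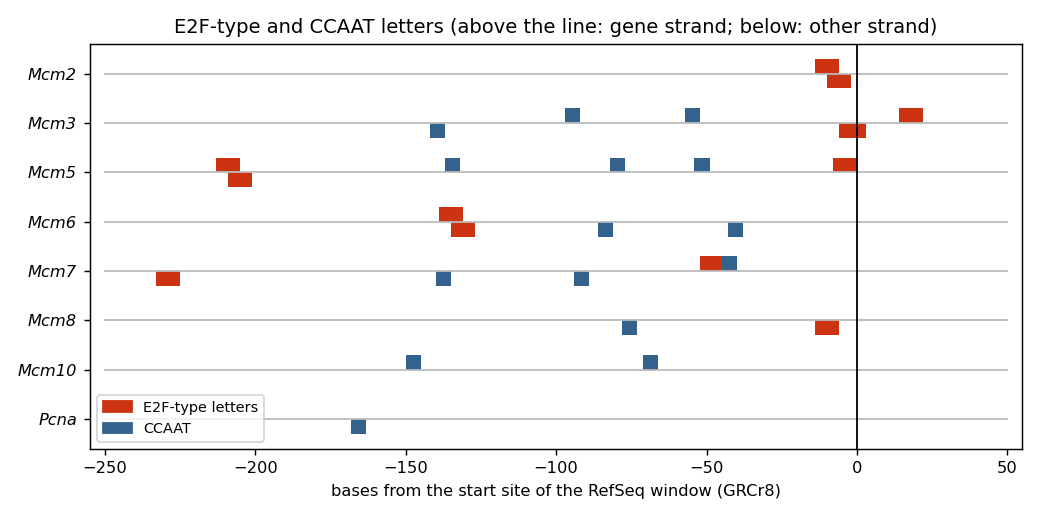
Positions of E2F-type letters (red) and CCAAT (blue) in the RefSeq windows of 8 genes, in bases from the start site on the x axis, with marks above each line for the gene strand and below it for the other strand. Red marks are present for 6 genes and absent for Mcm10 and Pcna. Marks lie within 14 bases upstream of the start site in Mcm2, Mcm5 and Mcm8, and 1 mark of Mcm3 lies across that site.

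Levels are given as the log2 of the background-subtracted spot signal minus the log2 of the 75th percentile of that array, so that 0 is a spot at the percentile. Between arrays, a level is compared only with levels of the same probe, since probes differ in how well they hybridise. Levels of different probes served to pick the brightest probe of a gene and to check the markers against the percentile. A log2 fold change compares the mean of the DPG arrays with that of the control arrays and is written with limma's standard error behind ± (n = 3 arrays per group). Every one of the 8 genes had at least 1 probe that was well above background on all 6 arrays, and unless another probe is named the values are those of the brightest such probe.

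Mcm2 encodes a hexamer subunit that also binds histones at the fork. Its brightest probe (A_64_P027048, transcript NM_001107873) read -0.93, -1.11 and -1.04 in controls 1 to 3 and -0.76, -0.90 and -0.86 in DPG 1 to 3. All 3 DPG arrays lay above all 3 control arrays, with DPG 2 and control 1 the closest. The log2 fold change was 0.19 ± 0.08, or 1.14-fold. Mcm2 has 3 probes for the same transcript, and the other probes read 0.07 ± 0.09 (A_44_P415010) and -0.13 ± 0.18 (A_44_P223446), with overlapping groups. The difference thus appeared on 1 of 3 probes, was 0.04 as the mean of the probes and 0.06 after another background correction (normexp).

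Mcm3 encodes another subunit of the ring. Its brightest probe (A_64_P052745, NM_001191805) read -0.58, -0.25 and -0.72 in the controls and -0.13, -0.32 and -0.17 in the DPG arrays. The groups overlapped because control 2 was above DPG 2, while the other controls were below every DPG array. Its log2 fold change was 0.31 ± 0.14 (1.24-fold), and 0.21 without control 3. A second probe, A_64_P048461, read -2.82, -2.75 and -2.91 against -2.48, -2.66 and -2.20, with every DPG array above every control and a log2 fold change of 0.38 ± 0.13. On the third, A_44_P142724, the value of 0.65 ± 0.36 came from DPG 1 at -0.92, since DPG 2 and DPG 3 (-2.31 and -2.06) were close to the controls (-2.54 to -2.26). The fourth probe, A_44_P760780, was well above background on 2 arrays of each group and was not kept; it read 0.26 ± 0.37. Mcm3 was the gene with the most probes on the same side, 4 of 4 above 0.

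Mcm4, a subunit of the catalytic core of the ring, read -0.71, -0.60 and -0.74 in the controls and -0.41, -0.34 and -0.38 in the DPG arrays on its brightest probe (A_43_P14634, NM_033651). The 3 DPG arrays were tightly grouped (SD 0.04) and all above the controls (SD 0.07). Its log2 fold change was 0.31 ± 0.07, a 1.24-fold difference. The other measured probes went the other way. A_44_P511519, well above background on all 6 arrays, read -0.30 ± 0.23, from -4.49 to -3.95 in the controls and -4.83 to -4.14 in the DPG arrays, with overlap. A_64_P033939, above background on 2 control arrays and 1 DPG array, read -1.06 ± 0.57 and was not kept. A_44_P482538 was well above background on none of the 6 arrays and gives no usable difference. As the mean of both kept probes the difference of Mcm4 was 0.0035.

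Mcm6 has 1 probe (A_44_P276338, NM_017287). It read -3.49, -3.42 and -3.60 in the controls and -3.48, -3.16 and -3.50 in the DPG arrays, so only DPG 2 lay above all the controls. The log2 fold change was 0.12 ± 0.12 (1.09-fold), 0.01 without DPG 2, 0.07 without control 3 and 0.08 with normexp. Mcm7, which forms the catalytic core of the ring with Mcm4 and Mcm6, had a brightest probe (A_64_P081501, NM_001004203) at 1.57, 1.56 and 1.41 in the controls and 1.69, 1.66 and 1.61 in the DPG arrays. All its DPG arrays were above all its controls, with DPG 3 the closest to them. The log2 fold change was 0.14 ± 0.07 (1.10-fold), and 0.09 without control 3. Its second probe (A_43_P23108) read 0.10 ± 0.07, with DPG 3 below control 2.

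Mcm8 was the only one of the 8 genes with a difference below 0. Its brightest probe (A_64_P051208, NM_001106514) read -2.66, -3.45 and -3.10 in the controls and -3.25, -3.55 and -2.81 in the DPG arrays, and the arrays of both groups were mixed. The log2 fold change was -0.13 ± 0.26 (0.913-fold), and turned to 0.07 without control 1 and 0.04 without DPG 2. The second probe of Mcm8 (A_44_P550850) read -0.37 ± 0.30, and it followed the first across the arrays.

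Mcm10, which acts with the helicase but is no subunit of the ring, read -4.37, -4.47 and -4.19 in the controls and -4.10, -3.81 and -4.26 in the DPG arrays (A_43_P23155, NM_001107366). DPG 3 was below control 3, so the groups overlapped. The log2 fold change was 0.29 ± 0.14 (1.22-fold), 0.16 without DPG 2 and 0.13 with normexp. Its other probe (A_44_P262720) was above background on none of the 6 arrays, and gives no usable difference.

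Pcna read 1.60, 1.31 and 1.46 in the controls and 1.76, 1.80 and 1.67 in the DPG arrays on its brightest probe (A_44_P995132, NM_022381). All DPG arrays lay above all controls. The log2 fold change was 0.29 ± 0.09 (1.22-fold). The second probe, A_44_P242756, is bright as well but showed no such separation, with -0.12, 0.05 and -0.11 in the controls and -0.02, 0.06 and -0.07 in the DPG arrays, a log2 fold change of 0.05 ± 0.08. As the mean of both probes the difference of Pcna was 0.17.

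**Figure D2:**
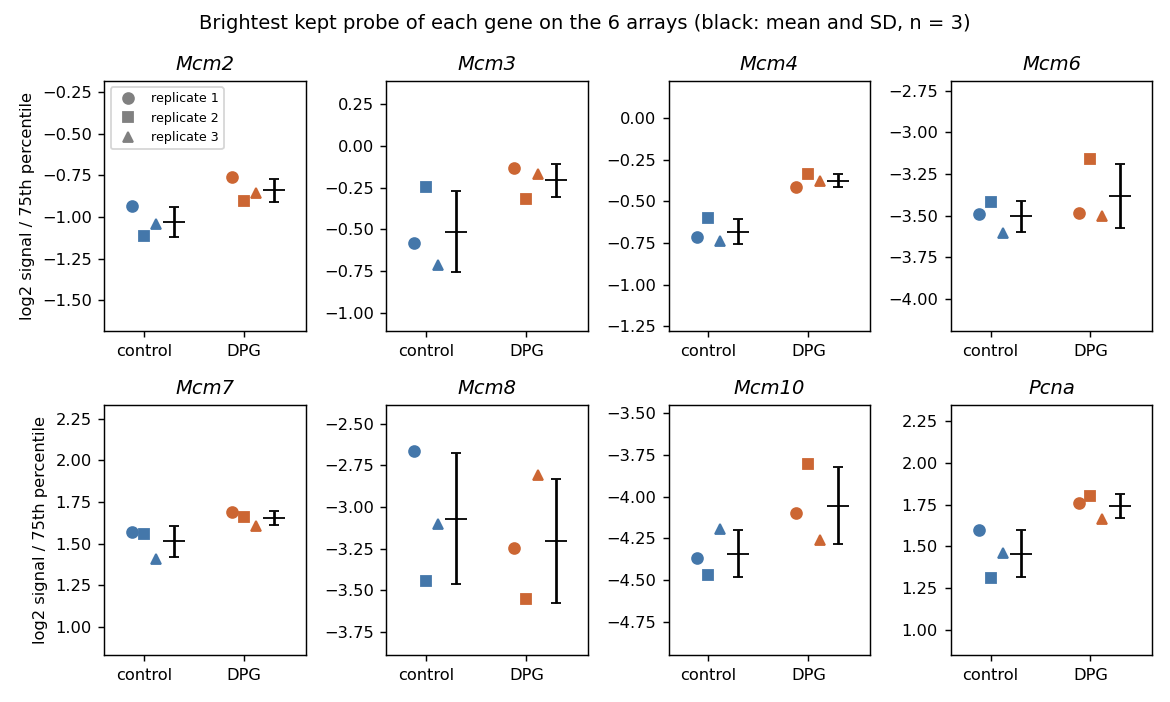
Log2 signal over the 75th percentile of the array (y axis) for the brightest kept probe of 8 genes on the 3 control (blue) and 3 DPG (orange) arrays, with symbols for the replicate and black bars for the mean and SD. The DPG points lie above the control points without overlap for Mcm2, Mcm4, Mcm7 and Pcna, and overlap for Mcm3, Mcm6, Mcm8 and Mcm10.

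Across the 8 genes, 7 had a log2 fold change above 0, and the median was 0.24, against 0.00 (0.0035) for all features. For 4 of 8 (Mcm2, Mcm4, Mcm7 and Pcna) every DPG array was above every control array, which was so for 10.7% of all features, and for 0 of 8 it was below, which was so for 8.96%. Since the genes were selected on this contrast, nothing is read from these counts. The mean difference of the 8 genes from their control mean was 0.07, -0.03 and -0.04 in the control arrays and 0.19, 0.19 and 0.18 in the DPG arrays. It was thus nearly equal in the 3 treated animals, while the single genes differed in which animal was highest. This near equality rests in part on Mcm8, which deviated from its group mean by -0.04, -0.35 and 0.39 in DPG 1 to 3. It thereby offset genes such as Mcm10, at -0.04, 0.25 and -0.21. The mean difference of the 5 measured ring subunits alone was 0.22, 0.23 and 0.19. The 5 measured subunits of the ring, Mcm2, Mcm3, Mcm4, Mcm6 and Mcm7, had differences from 0.12 to 0.31 with a median of 0.19. Without control 3 the median of the 8 genes was 0.20, with 7 above 0, and Mcm2, Mcm4, Mcm8, Mcm10 and Pcna read 0.18, 0.28, -0.15, 0.36 and 0.29. More RNA per cell and more cells of a kind that expresses these genes cannot be told apart in whole cortex.

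The median was smaller away from the brightest probes, although both other kept probes of Mcm3 read larger differences than the brightest. The other kept probe of Mcm8 lay further below 0 than the brightest. Of 16 kept probes of these genes, 12 read above 0 and 4 below, between -0.37 and 0.65, with a median of 0.13. The 8 kept probes that were not the brightest of their gene had a median of 0.06, with 5 above 0 and 1, that of Mcm3, with every DPG array above every control. For comparison, 10.5% of all kept probes had every DPG array above every control, and 50.2% read above 0. Of 6 genes with over 1 kept probe, Mcm2 and Mcm4 had probes of both signs.

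**Figure D3:**
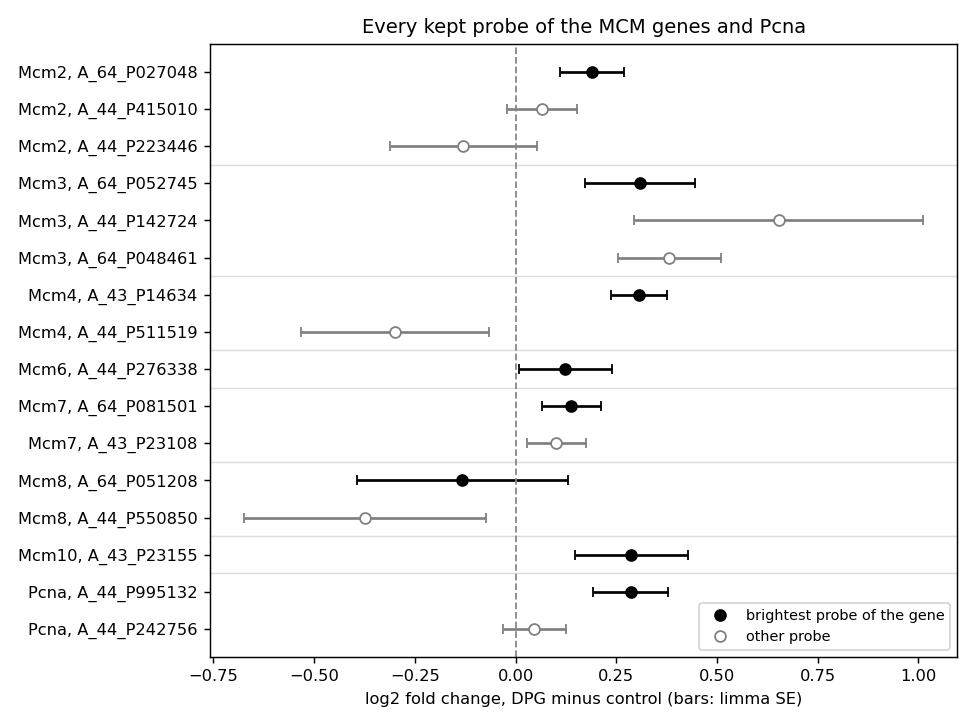
Log2 fold change, DPG minus control (x axis), of the 16 kept probes of 8 genes, with limma standard errors as bars; filled points are the brightest probe of each gene and open points the others. Filled points lie above 0 except that of Mcm8, while 3 of the 8 open points lie below 0, in Mcm2, Mcm4 and Mcm8.

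Whether the genes vary together from animal to animal was described from what the choice of genes did not use, the deviation of each array from the mean of its group. Over the 6 arrays, with both group means removed, Pearson r between pairs of the 8 genes had a median of -0.03 over 28 pairs, 14 of them above 0. It ran from -0.76 for Mcm2 with Mcm4 to 0.70 for Mcm4 with Mcm6. Among the 5 ring subunits 7 of 10 pairs were above 0, with a median of 0.34, and Mcm3, Mcm4 and Mcm7 were above 0 with one another at 0.65, 0.57 and 0.40. Mcm2 had an r of -0.25 with Mcm3, -0.76 with Mcm4, -0.50 with Mcm6 and 0.27 with Mcm7. Pcna followed Mcm2 (0.68) and went against Mcm3 (-0.70) and Mcm4 (-0.57). These values rest on 6 arrays that share 2 group means and are given with no p.

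The same measure was taken between probes of 1 gene, which should read the same transcript. Of 10 pairs of kept probes 9 were above 0, with a median of 0.36. The probes of Mcm8 had an r of 0.95, those of Mcm7 0.61, and the brightest pair of Mcm2 0.73. The 2 Pcna probes, in contrast, had an r of -0.46. Small differences between animals in Pcna therefore depended on the probe.

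Among 11760 features with a gene symbol, the 8 outside the gene lists whose deviations were most like the mean deviation of Mcm2 to Mcm7 were Fgf22, Pxmp4, Rad50, Dnajc16, Ephb1, Snx11, Trim31 and Galnt13. Their r over the 6 arrays lay between 0.990 and 0.995. They are the highest of 11760 values over only 6 arrays with both group means removed, where values this high can arise by chance, and they are listed as a description. Rad50, a subunit of the complex that senses double-strand breaks, had a log2 fold change of -0.0029 ± 0.17 (DPG over control), and Galnt13, which starts mucin-type O-glycans, 0.59 ± 0.18. The fibroblast growth factor gene Fgf22 read -0.03 ± 0.11, Pxmp4, a peroxisomal membrane protein gene, 0.53 ± 0.64, and Dnajc16 -0.16 ± 0.21. The ephrin receptor gene Ephb1 had -0.05 ± 0.14, the sorting nexin gene Snx11 -0.02 ± 0.08 and Trim31, a ubiquitin ligase gene, 0.22 ± 0.31.

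**Figure D4:**
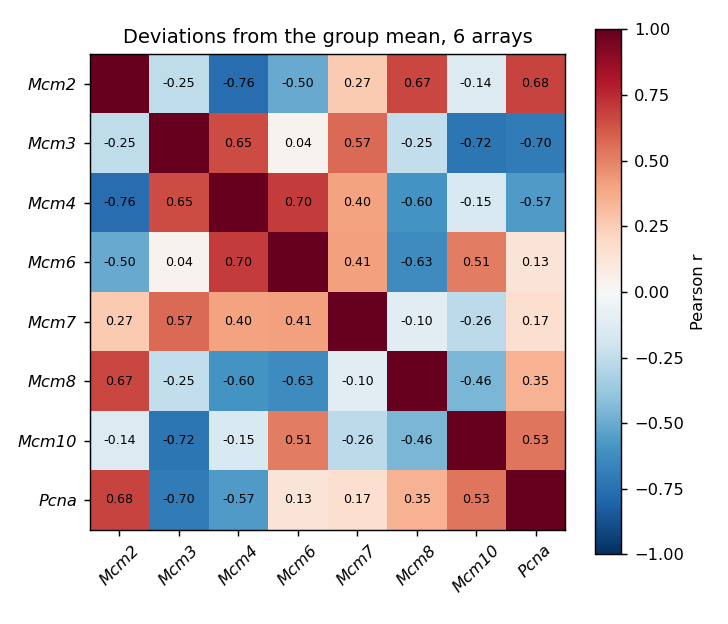
Pearson r between 8 genes over the deviations of the 6 arrays from their group means, from -1 (blue) to 1 (red), with the value in each cell. Mcm3, Mcm4 and Mcm7 are red with one another, whereas Mcm2 and Pcna, which are red together, are blue with Mcm3 and Mcm4.

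The genes that load, fire and follow the helicase were described with lists chosen, like the genes themselves, with earlier results of these data known, so nothing is read from their counts. Each list gene is given at its brightest kept probe alone. Some have more probes on the array, such as E2f1 and Ccna2 with 4 each, and these other probes were not compared. Beside each count at an unadjusted p of 0.05 stand the 6.68% of all features that were higher and the 5.70% that were lower, and beside each count above 0 the 50.8% of all features above 0. Upstream of the ring, the licensing and loading list had 10 of 13 genes measured, and 6 were above 0 with a median of 0.05. None of the 10 passed an unadjusted p of 0.05 in limma in either direction. Orc6 and Orc3, subunits of the origin recognition complex, read -0.39 ± 0.17 and -0.13 ± 0.08, Orc2 0.09 ± 0.09, and Gmnn, the gene of the CDT1 inhibitor geminin, 0.09 ± 0.08. Cdc6, the loading factor, read 0.25 ± 0.38 with controls between -5.46 and -4.13. Cdt1 and Orc1 had no kept probe and Mcm9, the partner of Mcm8, no matched probe.

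Downstream of loading, 10 of 14 measured genes of helicase activation and firing were above 0, with a median of 0.16; 2 passed an unadjusted p of 0.05 on the higher side (6.68% of all features) and 0 on the lower (5.70%). These were the cyclin genes Ccna2 (0.37 ± 0.12) and Ccne1 (0.48 ± 0.18), whose kinases drive entry into S phase. Cdc45, which joins the ring in the helicase, read -0.88, -0.75 and -0.85 in the controls and -0.71, -0.41 and -0.70 in the DPG arrays, with no overlap and 0.22 ± 0.10. The GINS subunit genes Gins4 and Gins1 read 0.16 ± 0.08 and 0.16 ± 0.09. Cdc7, the kinase that phosphorylates the ring, read -0.30 ± 0.18 and its activator Dbf4 0.24 ± 0.20.

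Around Pcna, the list of clamp loaders, polymerases and PCNA partners had 22 measured genes with a median of 0.02, 12 above 0, and at an unadjusted p of 0.05 it held 2 higher and 1 lower. Pclaf, which encodes a small PCNA-binding protein, read 0.47 ± 0.13 and Rnaseh2a, the catalytic subunit of the ribonuclease that removes RNA from DNA, 0.30 ± 0.07. Pola1, the catalytic subunit of the polymerase that starts new strands, read -0.36 ± 0.09, and Chaf1b, a histone chaperone subunit recruited by PCNA, 0.31 ± 0.14. The clamp loader genes Rfc1 to Rfc5 lay between -0.09 and 0.15. In nucleotide supply 4 of 7 genes were above 0 (median 0.06, 1 higher and 0 lower at an unadjusted p of 0.05), with the salvage kinase gene Tk1 at 0.25 ± 0.08, Dut at 0.28 ± 0.13, Rrm2 at 0.26 ± 0.16 and the thymidylate synthase gene Tyms at -0.22 ± 0.10.

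Of the regulators, 9 of 11 E2F and RB family genes were above 0 with a median of 0.11, 2 higher and 1 lower at an unadjusted p of 0.05. E2f1, an activating E2F, read -1.15, -1.20 and -1.36 in the controls and -0.91, -0.71 and -0.99 in the DPG arrays, with no overlap and 0.37 ± 0.10. E2f6, a repressing E2F, read -0.26 ± 0.08, the pocket protein gene Rbl2 0.21 ± 0.07 and E2f4 0.15 ± 0.10. Apart from the MCM genes and Pcna, 370 features had E2F-type letters in their window. Their median log2 fold change was 0.02, with 53.8% above 0. For the 9364 features whose window lacks such letters the median was 0.01, with 53.5% above 0.

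Genes of G2 and mitosis had a median of 0.24 over 18 measured genes, 17 of them above 0 (50.8% of all features), with 8 higher (6.68% of all features) and 0 lower (5.70%) at an unadjusted p of 0.05. Nusap1, Prc1 and Aurka, which act on the spindle, read 0.47 ± 0.12, 0.28 ± 0.09 and 0.27 ± 0.07, and Ube2c, which helps to degrade mitotic cyclins, 0.40 ± 0.11. The mean difference of the MCM genes and Pcna from the controls was 0.19, 0.19 and 0.18 in DPG 1 to 3, Mcm8 included. That of the G2 and mitosis genes was 0.11, 0.18 and 0.38. Their windows held E2F-type letters in 1 of 17 cases (5.88%), and CCAAT in 13 of 17 (76.5%). Inhibitors and quiescence genes had a median of -0.02 with 3 of 9 above 0 and 1 higher at an unadjusted p of 0.05, Cdkn2c at 0.18 ± 0.07. Cdkn2d read 0.15 ± 0.07, Btg2 0.16 ± 0.18, and Cdkn1a, the gene of the PCNA-binding inhibitor p21, -0.18 ± 0.10.

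**Figure D5:**
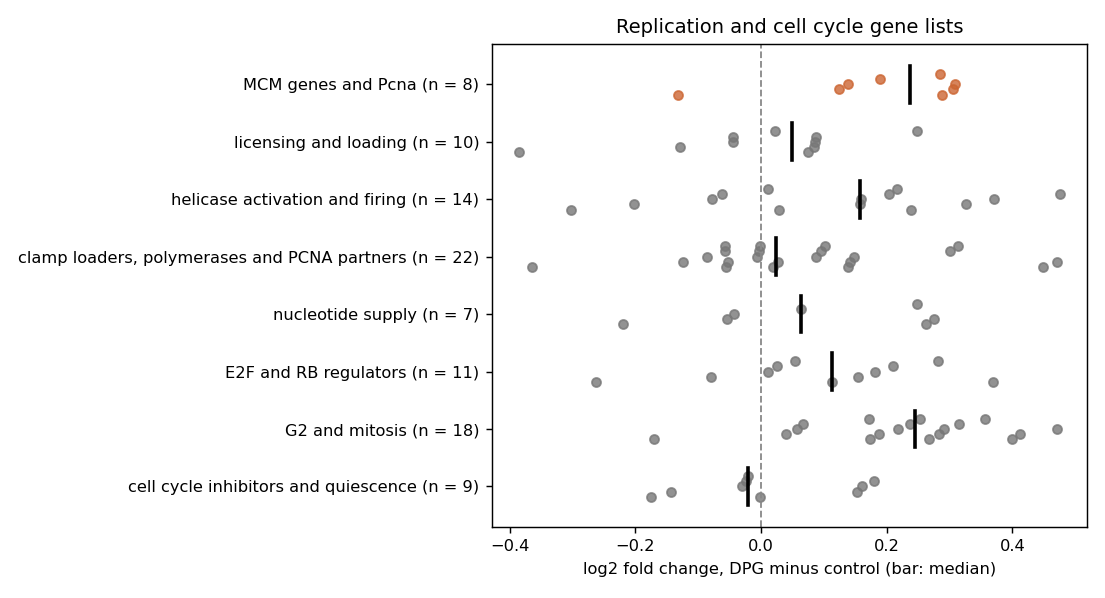
Log2 fold change, DPG minus control (x axis), of each measured gene in the MCM and Pcna set (orange) and 7 replication and cell cycle lists (grey), with a black bar at the median. The medians are 0.24 for the MCM genes and Pcna and for G2 and mitosis, and lie between -0.02 and 0.16 in the other lists.

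Markers of other cell types were set beside the genes. Of 15 leukocyte markers 13 were measured, 9 above 0 with a median of 0.12, and their mean difference from the control mean was -0.17 to 0.18 in the controls and 0.22, -0.22 and 0.41 in DPG 1 to 3. Lymphocyte markers stood at 0.17, -0.53 and 0.53 in DPG 1 to 3. DPG 2 had the lowest level of both lists among the 6 arrays. Of 5 measured markers of the thick ascending limb and distal tubule, 3 were above 0 (Umod, Slc12a1 and Cldn16, of the thick limb) and Slc12a3 and Calb1, of the distal tubule, below it. Their mean difference was 0.19, 0.26 and 0.19 in DPG 1 to 3, with controls from -0.10 to 0.16. Below 0 were all 6 podocyte markers, 7 of 10 proximal tubule markers and 5 of 7 collecting duct and inner medulla markers. Of 7 fibroblast and smooth muscle markers 6 were above 0, with a median of 0.09. Above 0 were also 2 of 6 measured endothelial markers (median -0.06) and 2 of 4 measured red blood cell markers (median -0.01). Adipocyte markers, of which 3 of 5 were measured, had a mean difference of -0.43 to 0.58 in the controls and 0.93, 0.26 and 0.80 in DPG 1 to 3, with Fabp4 at 1.89 ± 0.70, Cidec at 0.56 ± 0.20 and Adipoq at -0.45 ± 0.14. The part of any of these markers, leukocyte markers included, in the values of the MCM genes and Pcna was not tested.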

How the data were processed

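Arrays were read with Agilent's Feature Extraction software (10.7.1.1 per the file headers, 10.7 per the submitters' processing notes). The deposited intensity values are background-subtracted, detrended spot signals on a linear scale, unscaled between arrays, per the file headers. The deposited series table holds each signal as a ratio to roughly its array's 75th percentile (column medians 0.110, 0.111, 0.114, 0.111, 0.108 and 0.112); its making is not stated in the labels or headers, and it served as an alternative. Log2 signals had each array's 75th percentile subtracted. Control spots, probes not well above background on all 3 arrays of a group, and 23 probes with outlier flags were left out, which kept 40383. Of 61537 probes, 28206 matched 1 symbol through their accession in RefSeq's gene table (GRCr8). The other 33331 kept the identifier listed for them, which several probes can share. Groups came from the labels. The comparison of DPG with control used lmFit and eBayes of limma 3.58.1 (R 4.3.3), two-sided with Benjamini-Hochberg adjustment over all features, and the fit was tested on simulated data. The spread among 3 animals per group limits the precision, and an exact permutation test of 3 against 3 cannot go below p = 0.1.

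The genes and lists were chosen with earlier results of these data known. Named are every member with every probe, up to 4 genes per list by smallest unadjusted p, and the 8 genes most alike by deviation from the group means; Cdc6, Cdc7, Dbf4, Gins1, Topbp1 and the Rfc genes were named after their values were seen. Alternatives changed the background correction, scaling, filter, probe summary, variance model, weights, source table and block, and left out each array.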

Additional observations from a re-analysis of the deposited data

How the results depend on the processing

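Few arrays and small differences limit these values: the largest difference of a brightest probe was 0.31, and the standard errors ran to 0.26. With all 6 arrays, 7 of the 8 genes were above 0 in each alternative tried. The alternatives for filter, outlier flags, variance model and block gave these genes the same differences as the main setting, so their counts add nothing. The source table gave nearly the same values. Mcm4 counted as above 0 at 0.0035 as the mean of its probes. The median of the 8 genes, 0.24 by the brightest probe, was 0.13 with normexp (offset 50). It was 0.12 both as the mean of a gene's probes and with every probe on its own. It ranged from 0.19 to 0.26 when 1 array was left out (0.19 without control 2, and likewise without DPG 2), and 7 or 8 genes were then above 0. Mcm2 moved to 0.06 with normexp, 0.04 as the mean of its probes and 0.07 as their middle value, Mcm4 to 0.0035 and Pcna to 0.17; with normexp Mcm10 was 0.13 and Mcm6 0.08. The number of features past an adjusted p of 0.05 was 0 in each alternative with all 6 arrays, and 0 to 1 with 1 left out; it was 1 without control 2, as it was without DPG 2, and the cause was not tested. At an unadjusted p of 0.05 the count ran from 2569 to 3942 with 1 array left out and was 4493 with normexp; the 5008 with every probe on its own counts probes. Arrays with the same number did not deviate together (r of -0.02, -0.09 and -0.07). With the replicate number as a block 0 features passed the adjusted and 2987 the unadjusted threshold. Each group holds every replicate number, so this block cannot change a difference or the median of 0.24. A slide block could not be fitted, since each slide holds 1 group.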
